A study of Mus musculus with 8 samples.

Results

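Chromosome 13 of mouse embryonic stem cells (mESCs) was analysed as a chain of 500-kb bins in Hi-C maps, and its A and B compartment blocks were compared between cells in which LINE-1 (L1) RNA was targeted and control cells. In the mm9 build the chromosome takes 241 of the 5322 bins of the matrices, bins 3564 to 3804, and its members were chosen by position alone. A bin was dropped where its coverage was under 0.1 of the chromosome's median in any sample. This left 235 bins. The 6 dropped bins formed the first 3 Mb at the centromere end. In the control group, SCR AMO, mESCs were nucleofected with a scrambled antisense morpholino oligonucleotide (AMO). In the treated group, L1 AMO, they received an AMO against L1 RNA. Both groups received 5 nmol AMO per 100 μl, were sorted at 12 h and were harvested at 36 h. Each group had 2 samples, which the study's methods describe as independent transfections, and contacts were mapped by sisHi-C, a Hi-C protocol for small numbers of cells. Each L1 AMO sample came as 2 matrices, which were summed. A further 4 samples of the series, H3K9me3 ChIP-seq of the same treatments, were not analysed here.

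The oligos that set the groups apart are shown because they are the sole difference in treatment, each as the study lists it, in lower case with no base marked.
L1 AMO: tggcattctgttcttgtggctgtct
SCR AMO: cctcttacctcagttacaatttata
Both are 25 bases long. They share the same base at 6 of the 25 positions, and G or C makes up 48% of the L1 AMO and 32% of the SCR AMO.

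Mammalian chromosomes fold into A compartments, which are gene-rich, early replicating and hold many short B1 repeats, and B compartments, which are gene-poor, lie near the nuclear lamina or nucleolus and hold many L1 repeats. Regions of the same compartment contact each other more often than their distance predicts (homotypic contacts), and regions of opposite compartments less often (heterotypic contacts), which gives the plaid pattern of a Hi-C map. In the RefSeq annotation of GRCm38.p6, chromosome 13 carries 829 protein-coding genes, among them 53 histone genes, which encode the replication-dependent core and linker histones, and 26 genes whose symbol begins with Prl, the prolactin family of pituitary and placental hormones. Since that annotation is of another build than the maps, no gene was placed in a block.

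Maps of all chromosomes held 112381720 and 22252054 contacts in SCR AMO replicates 1 and 2, and 58030519 and 46263849 in L1 AMO replicates 1 and 2. Contacts within chromosome 13 numbered 4031612 and 789389 in SCR AMO, and 2168834 and 1763382 in L1 AMO. SCR AMO replicate 2 was thus the shallowest map. Of all contacts of the kept bins, 36.3% and 37.1% joined chromosome 13 to another chromosome in SCR AMO, against 27.4% and 25.1% in L1 AMO. These shares did not overlap between the groups. The depth of the SCR AMO matrices departs from the valid pairs that the study tabulates, whereas that of the L1 AMO matrices is close to it. Whether the matrices of the groups were made alike thus cannot be told apart from the AMO in any result here. On chromosome 13 the 2 matrices of an L1 AMO sample differed by no more than sampling noise, with a mean chi-square per pair of bins of 0.975 and 0.957. The replicates of a group differed by more, with 1.34 for SCR AMO and 1.42 for L1 AMO.

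Compartments were read from the first eigenvector of the correlation matrix of observed/expected contacts, where the expected value is the mean at the same distance. The map used was the mean of the 4 balanced maps, so that both groups entered the labels. The eigenvector held 33.8% of the variance, and its sign was set so that A bins prefer the B1-rich bins of chromosome 1 over its L1-rich bins. Its correlation with that preference was 0.93 over the 235 bins, which share their libraries. The same sign came from contacts with other chromosomes alone in 225 of 235 bins. By this measure 111 bins were A and 124 were B. Runs of at least 2 bins formed 23 blocks, 8 of A and 15 of B, and 8 lone bins were left out. Blocks are numbered from the centromere end with their type in front.

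A blocks covered 52 Mb and B blocks 61.5 Mb of the chromosome. The longest A blocks were A11 at 40.5 to 61 Mb, A18 at 93 to 101.5 Mb and A5 at 19 to 25 Mb, the last of which tied with A13 at 62 to 68 Mb. The longest B blocks were B17 at 74.5 to 93 Mb, B23 at 115 to 120.5 Mb and B1 at 4 to 9 Mb, which tied with B4 at 14 to 19 Mb. In each tie the block nearer the centromere was taken into the 6 named for length. The centromeric end was a chain of B blocks, B1 to B4, broken by lone A bins. The distal end was B23, which had the lowest mean eigenvector of any block, -1.12. Between A5 and A16 lay most of the A bins, with B blocks of 4.5 Mb or shorter between the A blocks. Several of those B blocks had a weak eigenvector: -0.39 in B10 at 39 to 40.5 Mb, -0.50 in B12 at 61 to 62 Mb, -0.29 in B14 at 68 to 69.5 Mb and -0.41 in B15 at 70 to 73 Mb. A7, at 29.5 to 31.5 Mb, was the weakest A block with 0.09.

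**Figure D1:**
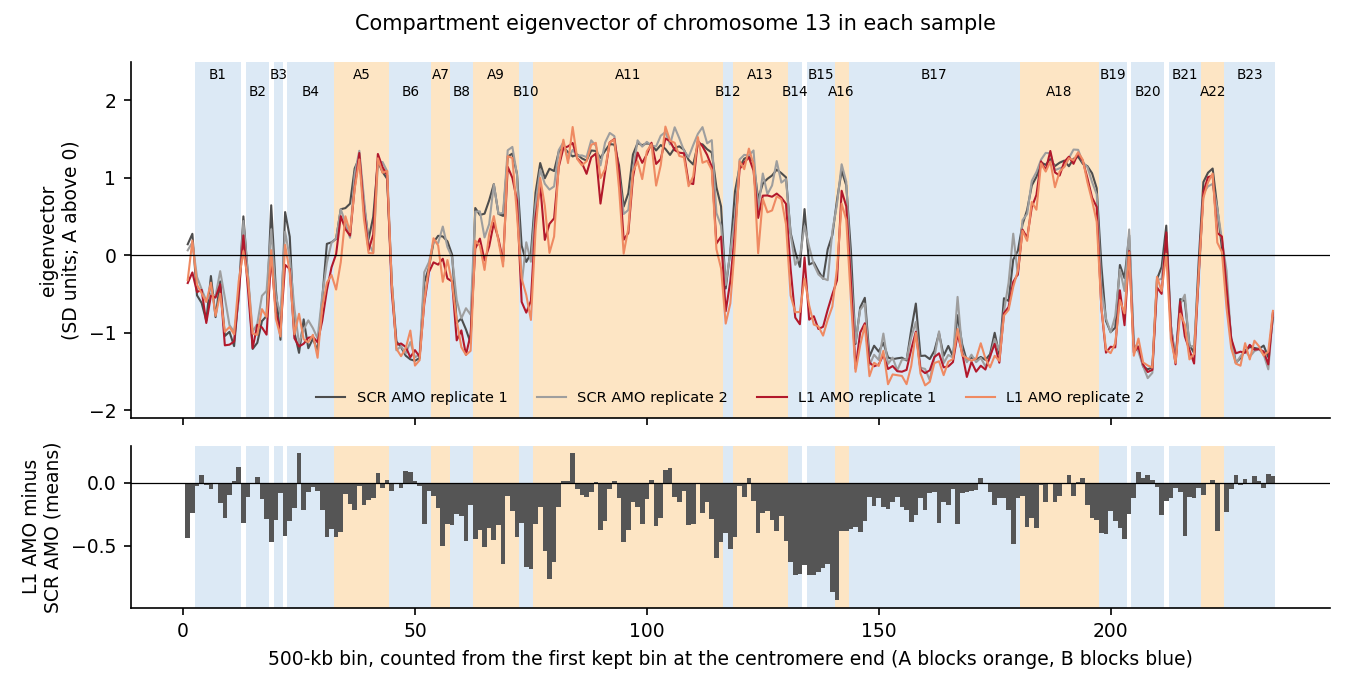
Upper panel: the compartment eigenvector of each sample's own map (y axis, SD units, A above 0) by 500-kb bin from the centromere end (x axis), with A blocks shaded orange and B blocks blue. Lower panel: the mean of the L1 AMO samples minus the mean of the SCR AMO samples. The 4 curves run together over most of the chromosome, with r from 0.962 to 0.987 between samples. The L1 AMO curves lie below the SCR AMO curves from B14 to A16, and by block mean also in A9, B10, B12 and B19, among others.

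The plaid pattern of chromosome 13 was weaker in L1 AMO than in SCR AMO. To measure it, the 20% of bins with the highest and the 20% with the lowest eigenvector, 47 bins each, were taken as the corners of the map, and bins were not paired with themselves. The mean observed/expected frequency between A and A corner bins was 1.28 and 1.30 in SCR AMO and 1.17 and 1.16 in L1 AMO. Between B and B corner bins it was 1.56 and 1.52 in SCR AMO and 1.42 and 1.40 in L1 AMO. Between A and B corner bins it was 0.449 and 0.449 in SCR AMO and 0.600 and 0.614 in L1 AMO. Both homotypic values were therefore lower, and the heterotypic value higher, in each L1 AMO sample than in each SCR AMO sample. Compartment strength, here the average homotypic value divided by the heterotypic value, was 3.16 and 3.14 in SCR AMO and 2.16 and 2.09 in L1 AMO. Group means ± SD (n = 2) were 3.15 ± 0.0113 and 2.13 ± 0.0527, a difference of -1.02 or -32.5%. The A-B value had the largest relative difference of the 3 corners, 35.2%, against -9.45% for A-A and -8.15% for B-B. A two-sided exact permutation test of so few samples cannot go below p = 0.333, which it gave for each of these 4 values (Benjamini-Hochberg adjusted p = 0.476 over the 10 values tested this way). Without balancing of the maps the B-B values of the groups overlapped, with a difference of -0.0228 in place of -0.125. The size of the difference in strength depended on how many bins entered the corners, at -1.31 with 10% and -0.161 with 50% of bins at each end, without overlap in either.

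**Figure D2:**
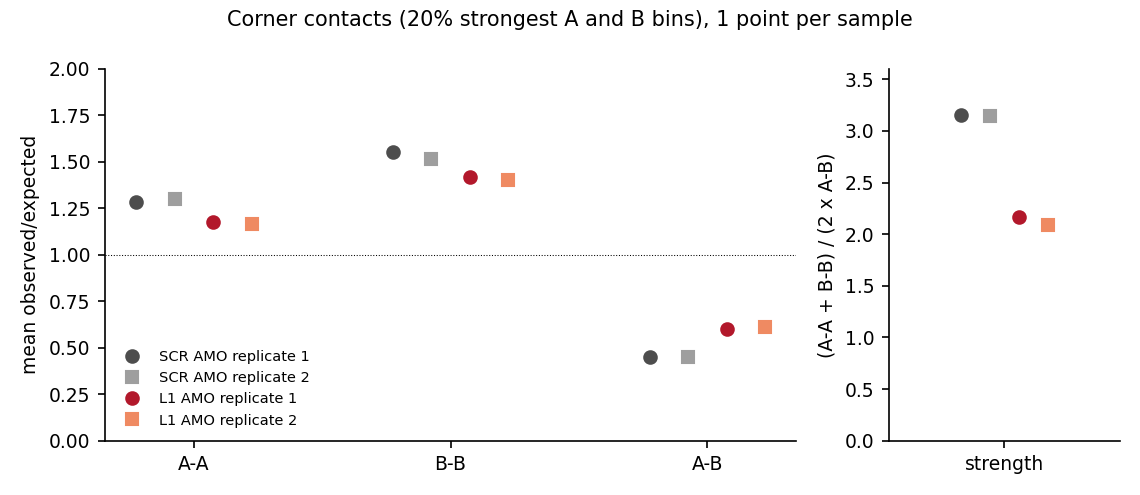
Mean observed/expected contact frequency in the A-A, B-B and A-B corners of chromosome 13 (left, y axis, dotted line at 1) and compartment strength (right), 1 point per sample. The L1 AMO points lie below the SCR AMO points for A-A, B-B and strength, at 2.09 to 2.16 against 3.14 to 3.16 for strength, and above them for A-B.

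Among the 19 autosomes the percent difference in strength of chromosome 13 was the third lowest. Its B-B difference was the lowest of the 19 and its A-B difference stood at rank 17 from the lowest. The A-A difference stood at rank 15 and so was smaller in size than on most autosomes. These ranks are a description without a test.

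Contacts of the chromosome were also redistributed over distance. Contacts between 2 and 10 Mb made up 10.8% and 9.99% of the balanced contact frequency in SCR AMO and 12.3% and 12.1% in L1 AMO. Contacts beyond 10 Mb made up 16.7% and 15.4% in SCR AMO and 14.6% and 14.1% in L1 AMO. Neither pair of groups overlapped, with differences of 1.76 and -1.72 percentage points (two-sided exact permutation p = 0.333 for each, adjusted p = 0.476). Without SCR AMO replicate 1 the latter difference was -1.07 points. The share within 2 Mb, contacts inside a bin included, was 72.5% and 74.6% in SCR AMO and 73.2% and 73.8% in L1 AMO. These groups overlapped, with a difference of -0.0387 points and an SD of 1.51 and 0.417 points (n = 2; two-sided exact permutation p = 1.0). Within that share, contacts between adjacent bins made up 21.6% and 21.0% in SCR AMO and 19.8% and 19.2% in L1 AMO, without overlap, at a log2 ratio of -0.13. In finer bands beyond 2 Mb the log2 ratio (L1 AMO over SCR AMO) was 0.26 from 2 to 5 Mb and 0.17 from 5 to 10 Mb. It was -0.11 from 10 to 20 Mb, -0.08 from 20 to 40 Mb, -0.29 from 40 to 80 Mb and -0.45 beyond 80 Mb. Whichever sample of one group was set against whichever of the other, the ratio kept its sign in each of these bands.

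The corner values above were already divided by the mean at each distance. Next, A-A, B-B and A-B pairs were compared within 3 distance bands, now over all A and B bins by the sign of the eigenvector. A-A pairs 10 to 40 Mb apart had an observed/expected frequency of 1.15 and 1.15 in SCR AMO and 1.05 and 1.02 in L1 AMO. Beyond 40 Mb the A-A values were 1.40 and 1.42 in SCR AMO and 1.30 and 1.29 in L1 AMO. A-A contacts were thus lower in L1 AMO at each distance, with relative differences of -6.17% from 2 to 10 Mb, -9.61% from 10 to 40 Mb and -8.19% beyond 40 Mb. A-B pairs 10 to 40 Mb apart stood at 0.778 and 0.775 in SCR AMO and 0.836 and 0.851 in L1 AMO. They were higher in L1 AMO in all 3 bands, by 6.60%, 8.68% and 3.36% from the nearest to the farthest. B-B pairs took a different course, since their difference was -0.803% from 2 to 10 Mb, -2.98% from 10 to 40 Mb and 1.48% beyond 40 Mb. The B-B values beyond 40 Mb were 1.10 and 1.10 in SCR AMO and 1.12 and 1.11 in L1 AMO, close together though not overlapping. The share of A bins in the raw coverage of the chromosome was 52.0% and 51.5% in SCR AMO and 51.4% and 49.8% in L1 AMO. Its part in these values was not tested beyond the balancing itself.

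**Figure D3:**
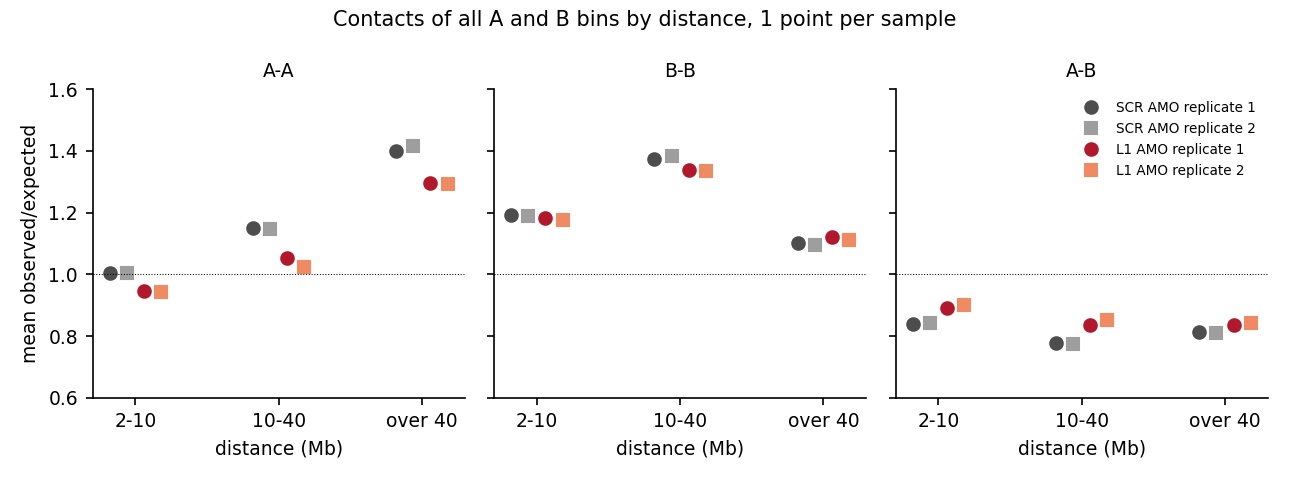
Mean observed/expected frequency (y axis) of A-A, B-B and A-B pairs of bins in 3 distance bands (x axis, Mb), 1 point per sample, with the axis starting at 0.6. The L1 AMO points lie below the SCR AMO points for A-A and above them for A-B in every band, and the B-B points lie above only beyond 40 Mb.

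Single pairs of blocks were then tested, to see which contacts carried these differences. Raw counts were summed over each of the 276 pairs of blocks, a block with itself included, and compared with edgeR's quasi-likelihood test fitted to all 9741 pairs of the autosomes and chromosome X. At an adjusted p under 0.05, 139 pairs of chromosome 13 were called, of which 65 rose and 74 fell. Over all chromosomes 48.9% of pairs were called, 24.2% up and 24.7% down, so that the share on chromosome 13 lay near the background. Of 36 A-A pairs 1 rose and 20 fell, beside a background of 10.1% and 53.1%. Of 120 B-B pairs 30 rose and 24 fell, beside 28.5% and 10.6%, and of 120 A-B pairs 34 rose and 30 fell, beside 27.9% and 20.6%. The calls were ordered by distance. Of 61 pairs with block centres up to 10 Mb apart 34 rose and 0 fell, and of 122 pairs over 40 Mb apart 5 rose and 63 fell. The background at these distances had the same order, with 57.6% up and 1.92% down up to 10 Mb and 7.81% up and 38.7% down over 40 Mb. With library sizes alone in place of TMM factors the split was 30 up and 115 down.

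Among calls without overlap between the groups, the 5 largest falls in counts joined the centromeric B chain to blocks beyond 93 Mb. At equal distance, as fitted below, none of the 5 was called (edgeR adjusted p from 0.0690 to 0.426) and the groups overlapped in all 5. Values are given in CPM, counts per 1e6 counts of all tested pairs of blocks, scaled by TMM. B1/A22, 107 Mb between centres, had 8.39 and 5.10 CPM in SCR AMO and 4.91 and 4.56 in L1 AMO. It fell by 0.68 on the log2 scale (SE 0.15, edgeR adjusted p = 2.11e-04). B3/A18 fell by 0.69, B3/B21 by 0.63, B2/B20 by 0.63 and B2/A22 by 0.61. In all 5 SCR AMO replicate 1 was the highest, and replicate 2 lay between it and the L1 AMO samples. Without SCR AMO replicate 1 the log2 fold changes of the 5 were smaller in size, from -0.334 to -0.102. DESeq2 called none of the 5, with adjusted p from 0.0548 to 0.385. The 5 largest rises were between neighbouring or mid-range blocks around B10 and B15. A13/B15 had 58.2 and 60.8 CPM in SCR AMO and 87.1 and 89.5 in L1 AMO. It rose by 0.58 (SE 0.060, edgeR adjusted p = 1.31e-10). B15/B17 had 212 and 211 in SCR AMO and 299 and 314 in L1 AMO, and rose by 0.54. B3/B10, B2/B10 and B8/B10 rose by 0.66, 0.49 and 0.46. Of the 5, B3/B10 did not pass without SCR AMO replicate 1 (edgeR adjusted p = 0.0945) or by DESeq2 (adjusted p = 0.106).

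An offset was then added for the count expected at the same distances in each sample. Among called pairs, A-A pairs then fell, and most B-B and A-B pairs rose. Of the 276 pairs 80 were called, 58 up and 22 down, against 33.1% called over all chromosomes, 19.1% up and 14% down. Among 36 A-A pairs 13 fell and 0 rose at an adjusted p under 0.05, and 23 were not called. The background was 46% of A-A pairs falling and 1.26% rising. Among 120 B-B pairs 33 rose and 5 fell, against a background of 29.2% rising and 3.1% falling. Among 120 A-B pairs 25 rose and 4 fell, against 20.8% and 6.21%. The shares on chromosome 13 were therefore of the order of those of the genome. The median log2 fold change was -0.13 for A-A, 0.10 for B-B and 0.03 for A-B pairs, beside -0.17, 0.11 and 0.05 over all chromosomes. DESeq2 called 10 of the A-A pairs lower and 0 higher, and 40 pairs in all, beside 1635 of 9741 over all chromosomes.

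Balancing weights change the B-B part of this count. When the offset also held the weights of both bins, an alternative chosen after the data were seen, 111 pairs were called, 63 up and 48 down, against 35.2% over all chromosomes, 18.7% up and 16.5% down. B-B pairs then split into 26 up and 21 down, beside a background of 17% and 14%. A-A pairs split into 7 up and 15 down, beside 10.6% and 40.8%, and A-B pairs into 30 up and 12 down, beside 23.4% and 6.88%. All 13 A-A falls, 25 of the 33 B-B rises and 23 of the 25 A-B rises were called in the same direction by both fits. Without SCR AMO replicate 1, the deepest map, 23 pairs were called at equal distance, 13 up and 10 down, against 13.1% over all chromosomes, 6.58% up and 6.47% down. A-A pairs then had 7 down and 0 up, beside 24.8% and 0.752%. B-B rises dropped to 6, with 2 falls, beside 7.76% and 1.19%, and A-B rises to 7, with 1 fall, beside 8.53% and 1.37%.

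Contacts of A13 and A18 with other A blocks had the largest falls. A16/A18, which face each other across B17, had an observed/expected ratio of 2.41 and 2.48 in SCR AMO and 1.85 and 1.66 in L1 AMO. It fell by 0.47 on the log2 scale (SE 0.053, edgeR adjusted p = 3.94e-11). A13 took part in the next 4 falls. A13/A18 had 1.30 and 1.35 in SCR AMO and 1.04 and 0.931 in L1 AMO, and fell by 0.41 (SE 0.047, edgeR adjusted p = 4.40e-11). A5/A13 fell by 0.39, A13/A22 by 0.35 and A9/A13 by 0.34. Lack of overlap between the groups was a condition for naming these 5 pairs. Without SCR AMO replicate 1 only A13/A22 of them lost its call. Of the 7 pairs of A13 with other A blocks 5 fell, with a median log2 fold change of -0.34, the lowest of any A block. The long blocks A11 and A18, 46.5 Mb apart, had 1.84 and 1.84 in SCR AMO and 1.60 and 1.55 in L1 AMO, a fall of 0.22 (SE 0.037, edgeR adjusted p = 1.31e-06).

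The largest rises at equal distance were between B blocks of weak and of strong eigenvector. B15/B23, 46.3 Mb apart, had 1.22 and 1.26 in SCR AMO and 1.71 and 1.74 in L1 AMO. It rose by 0.48 on the log2 scale (SE 0.060, edgeR adjusted p = 9.51e-10). B14/B23 had 0.671 and 0.666 in SCR AMO and 0.961 and 0.943 in L1 AMO, and rose by 0.51 (SE 0.096, edgeR adjusted p = 1.92e-05). B3/B10 rose by 0.61, B12/B20 by 0.46 and B12/B23 by 0.46, on few counts. SCR AMO replicate 2 had 20, 44 and 45 of them in the same order. Without SCR AMO replicate 1 these 3 did not pass, with edgeR adjusted p = 0.132, 0.704 and 0.167. The log2 fold changes were then 0.74, 0.20 and 0.50, so that of the 3 only that of B12/B20 was smaller. Of the 14 pairs of B10 with other B blocks 10 rose and 0 fell, beside 29.2% and 3.1% of B-B pairs over all chromosomes. Of its 8 pairs with A blocks 0 rose and 0 fell, beside 20.8% and 6.21% of A-B pairs. In each sample's own map the mean eigenvector of B10 was 0.02 and -0.10 in SCR AMO and -0.64 and -0.55 in L1 AMO. B14 and B15 differed likewise, as given below, so the B label of these 3 came mainly from the L1 AMO maps. Its part in their rises, at equal distance or in counts, was not tested.

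Heterotypic rises were most frequent on the long blocks A11, with 8 of its 15 pairs with B blocks up, and B17, with 5 of its 8 pairs with A blocks up, and on the distal block B23. Calls also depend on the contacts per pair, which are more for long blocks. The median log2 fold change with A blocks was 0.10 for B17 and also for the short block B3, of whose 8 such pairs 0 rose. It was 0.32 for B23. The pair of A11 and B17, the 2 longest blocks of the chromosome, had counts of 24263 and 4540 in SCR AMO and 15160 and 12725 in L1 AMO. Its observed/expected ratio was 0.492 and 0.503 in SCR AMO and 0.634 and 0.666 in L1 AMO. The ratio rose by 0.39 on the log2 scale (SE 0.038, edgeR adjusted p = 2.13e-13). A11/B23 had 0.489 and 0.470 in SCR AMO and 0.645 and 0.667 in L1 AMO, a rise of 0.44 (SE 0.052, edgeR adjusted p = 1.75e-10). B23 had 6 of its 8 pairs with A blocks up and 0 down. The strong B blocks did not gain contacts with each other in the same way. B17/B23, 34 Mb apart, had a ratio of 1.61 and 1.61 in SCR AMO and 1.53 and 1.60 in L1 AMO and was not called (log2 fold change -0.04, SE 0.038, edgeR adjusted p = 0.429). With the weights of both bins in the offset it was called lower (log2 fold change -0.09, edgeR adjusted p = 5.21e-05). Among the other pairs of the 6 blocks named for length, B1/A5, B1/A11, B17/A18 and A18/B23 rose and A5/A11 fell. B1/B17, B1/A18, B1/B23, A5/B17, A5/A18 and A5/B23 were not called at equal distance. Of these, B1/B17, B1/A18 and A5/B17 were called lower with the weights in the offset, at log2 fold changes of -0.16, -0.14 and -0.095. The 6 pairs of one of these blocks with itself were not called at equal distance, with log2 fold changes from -0.03 to 0.02. With the weights of both bins in the offset all 6 were called (edgeR adjusted p from 2.92e-16 to 5.04e-03). Their log2 fold changes were then 0.02 to 0.09 in the A blocks and -0.08 to -0.03 in the B blocks.

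**Figure D4:**
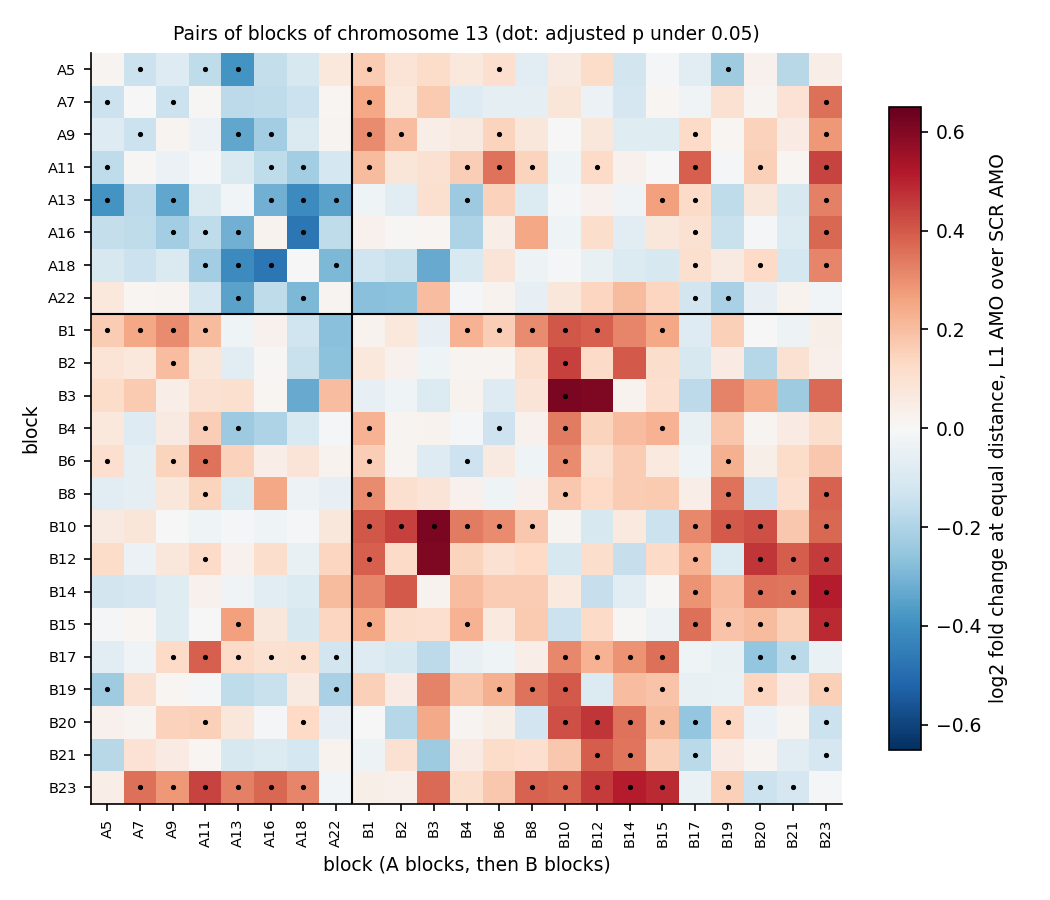
Log2 fold change at equal distance, L1 AMO over SCR AMO (colour), for each pair of blocks of chromosome 13, with A blocks first and then B blocks on both axes and a dot where the edgeR adjusted p was under 0.05. Each pair stands on both sides of the diagonal. The A-A corner is mostly blue, with 13 pairs dotted, all of them falls. B10 has the most dotted rises with other B blocks, 10, and A11 has the most with blocks of the other type, 8.

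For each block, homotypic preference was taken as its mean observed/expected frequency with blocks of its own type over that with the other type, using bins over 2 Mb away. Since the blocks were labelled from the same maps, a preference above 1 follows from the labels, and the comparison is between the groups. In weak B blocks the labels also bear on that comparison, as given below. In each of the 8 A blocks the L1 AMO samples both lay below the lower SCR AMO sample, as in 96.5% of the A blocks of the autosomes. Their log2 ratio (L1 AMO over SCR AMO) ran from -0.30 to -0.05. Of 15 B blocks 7 were lower, 6 were higher and 2 overlapped, beside 42.8% lower and 36.1% higher over the autosomes. The median log2 ratio was -0.21 for A and -0.04 for B blocks, beside -0.22 and -0.02 over the autosomes. Contacts of the A blocks with other A blocks were lower in all 8, beside 95.3% of autosomal A blocks, and their contacts with B blocks were higher in 5 and lower in 2, beside 68.9% and 13.8%. Contacts of the B blocks with other B blocks were higher in 7 and lower in 5, beside 58.5% and 19.1%. Their contacts with A blocks were higher in 8 and lower in 1, beside 61.9% and 19.4%.

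The B blocks thus went both ways, with ranges in the control cells that overlapped in part. The 7 that were lower in L1 AMO, B1, B4, B6, B17, B20, B21 and B23, had a mean preference of 1.36 to 2.22 in SCR AMO and were 3.5 Mb or longer. The 6 that were higher, B8, B10, B12, B14, B15 and B19, had 0.974 to 1.38 in SCR AMO and were 3 Mb or shorter. The 2 that overlapped between groups, B2 and B3, had 1.41 and 1.48. B23 had the largest difference of any block, with 2.21 and 2.23 in SCR AMO and 1.81 and 1.80 in L1 AMO. Its contacts with other B blocks were higher by a small margin, at 1.51 and 1.51 in SCR AMO and 1.55 and 1.54 in L1 AMO. Its contacts with A blocks were higher, at 0.685 and 0.677 in SCR AMO and 0.859 and 0.857 in L1 AMO. B17 had lower contacts with other B blocks as well, at 1.30 and 1.29 in SCR AMO and 1.23 and 1.21 in L1 AMO.

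A11 and A13 followed B23 in size of the difference. The preference of A11 was 1.81 and 1.81 in SCR AMO and 1.50 and 1.45 in L1 AMO. That of A13 was 1.67 and 1.67 in SCR AMO and 1.39 and 1.32 in L1 AMO. At the other end, B14, B15 and B10 had the largest positive log2 ratios, 0.27, 0.21 and 0.18. B14 had 0.991 and 0.956 in SCR AMO, so that it met A and B blocks about equally, and 1.20 and 1.16 in L1 AMO. The preference of B15 was 1.03 and 1.04 in SCR AMO and 1.20 and 1.18 in L1 AMO, and that of B10 was 1.04 and 1.09 against 1.22 and 1.19. In all 3 the values with other B blocks were higher in L1 AMO, and those with A blocks overlapped or, in B15, were lower. In each sample's own map, the mean eigenvector of B14 was 0.06 and 0.04 in SCR AMO and -0.62 and -0.66 in L1 AMO. That of B15 was -0.06 and -0.09 against -0.78 and -0.83, and that of B10 was 0.02 and -0.10 against -0.64 and -0.55. The B label of these 3 thus came mainly from the L1 AMO maps, and its part in these differences was not tested. Over the 15 B blocks the SD of the group mean preference was 0.341 in SCR AMO and 0.169 in L1 AMO, so the B blocks lay closer together in the treated cells. This narrowing is a description without a test.

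**Figure D5:**
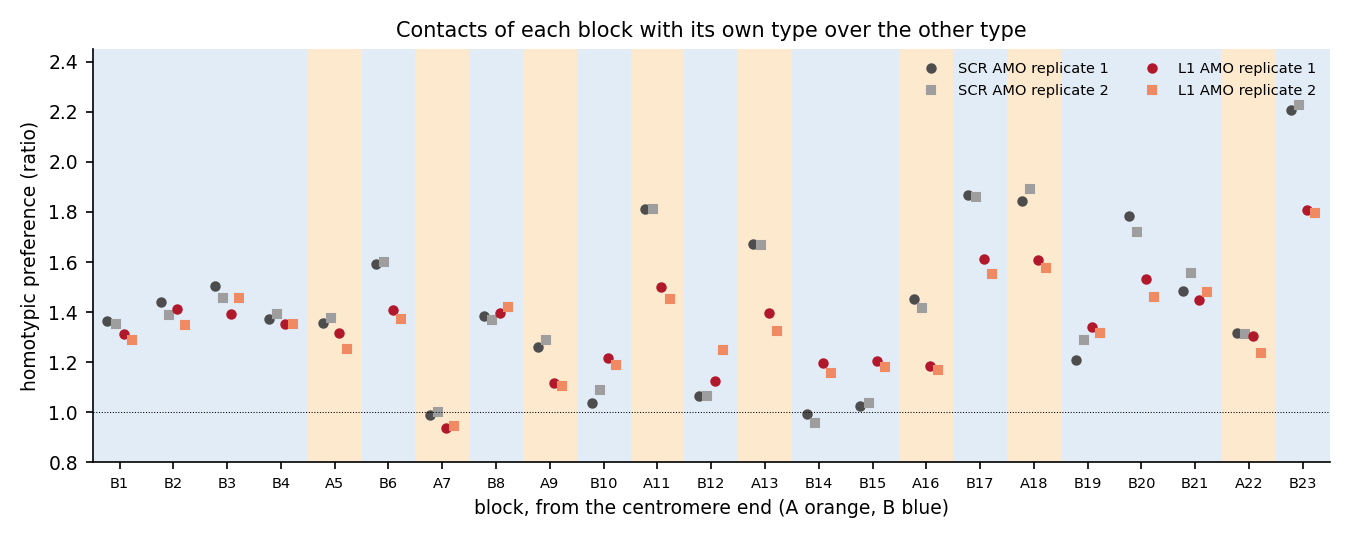
Homotypic preference (y axis, ratio, dotted line at 1, axis starting at 0.8) of the 23 blocks of chromosome 13 in order from the centromere end (x axis), 1 point per sample, A blocks on orange and B blocks on blue. In all 8 A blocks the L1 AMO points lie below the SCR AMO points, and in B8, B10, B12, B14, B15 and B19 they lie above.

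The sign of the eigenvector of each sample's own map was the same in all 4 samples in 204 of the 235 bins. In 11 bins it was A in both SCR AMO samples and B in both L1 AMO samples, and in 0 bins the reverse. Over the autosomes 5.17% of bins took that direction and 0.0418% the other. The bins at 35 and 37 Mb lay inside A9. The others lay in the weak block A7, at 30.5 and 31 Mb, at edges of blocks, at 18.5, 61.5, 68, 72.5 and 73 Mb, or were lone bins, at 3 and 69.5 Mb. In the bin at 73 Mb the eigenvector was 0.71 and 0.66 in SCR AMO and -0.32 and -0.17 in L1 AMO. In the bin at 69.5 Mb, the lone A bin between B14 and B15, it was 0.60 and 0.38 in SCR AMO and -0.03 and -0.30 in L1 AMO. The count of A bins was 125 and 119 in SCR AMO and 100 and 102 in L1 AMO. Each sample's eigenvector was computed from its own map, so its zero need not mark the same state in each sample. Over the whole chromosome the eigenvectors of the groups stayed close, with r = 0.987 within each group and 0.962 to 0.977 between groups. Without SCR AMO replicate 2 the count of bins from A to B was 20, and with any of the other 3 samples left out it was 14 to 16.

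Contacts with other chromosomes give a readout of the same blocks that the eigenvector of chromosome 13 did not use. Corner A bins of chromosome 13 met corner A bins of the other 18 autosomes at 1.97 and 1.83 times the mean of all such pairs in SCR AMO and at 1.89 and 1.76 times in L1 AMO, so the groups overlapped. B bins met B bins at 0.943 and 0.975 in SCR AMO and at 1.01 and 1.05 in L1 AMO, without overlap (two-sided exact permutation p = 0.333, adjusted p = 0.476). A bins met B bins at 0.619 and 0.660 in SCR AMO and at 0.631 and 0.651 in L1 AMO, again with overlap. The higher A-B contact seen within the chromosome was thus not seen between chromosomes. There the group means differed by 0.00155, with an SD of 0.0293 in SCR AMO and 0.0135 in L1 AMO (n = 2).

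By block, the log2 ratio of contacts with A over B corner bins of other autosomes was lower in both L1 AMO samples in 21 of 23 blocks, beside 78.5% of the autosomal blocks. The 2 blocks that overlapped were those with the strongest eigenvector of each type, A11 and B23. A11 had 1.51 and 1.31 in SCR AMO and 1.42 and 1.27 in L1 AMO. B23 had -0.71 and -0.63 in SCR AMO and -0.64 and -0.68 in L1 AMO. B12, B14 and B19 had the lowest differences, -0.51, -0.46 and -0.43. B14 passed from 0.51 and 0.36 in SCR AMO to 0.04 and -0.08 in L1 AMO. B19, at 101.5 to 104.5 Mb, passed from 0.17 and 0.15 to -0.27 and -0.28. The 5 lowest differences, with B10 at -0.34 and B15 at -0.33, all belonged to B blocks that had a higher homotypic preference in L1 AMO within the chromosome. B8, the other such block, had -0.21. Contacts between chromosomes were also the share that differed most in depth between the groups, at 36.3% and 37.1% against 27.4% and 25.1%, and the part of that difference in these values was not tested.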

How the data were processed

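The authors made the deposited count matrices with HiC-Pro (2.7.1b per the submitters' processing notes; the methods name another version) on mm9, as raw contacts per pair of 500-kb bins. Filters and duplicate removal for these matrices are not given in the sources used here. The labels' extract text also speaks of embryos, while the samples are labelled as mESCs. From these counts, maps were balanced by iterative correction over 5093 kept bins (18 to 19 rounds, numpy 2.4.6), divided by the mean at each distance, and given an eigenvector per chromosome. B1-rich and L1-rich bins of chromosome 1, 145 and 241, came from the sign in a supplementary table of the study. Pairs of blocks with a mean of at least 10 counts were tested with edgeR 4.0.16 (TMM, quasi-likelihood, Benjamini-Hochberg over 9741 pairs); DESeq2 1.42.0 was an alternative. The edgeR fold change is L1 AMO over SCR AMO, and its SE is the fold change over the square root of F. Counting error is smallest in SCR AMO replicate 1, with a mean of 18.8 contacts per pair of bins over 40 Mb apart, and largest in replicate 2, with 3.23. Single values were tested over samples with exact permutation. Where nothing but the transfections tells samples apart, p-values rest on the spread between these 2 samples per group. In edgeR that spread is moderated across the 9741 pairs of blocks. These pairs share bins and libraries and are not independent. Blocks and pairs were named by rule: the 3 longest of each type, the 5 largest rises and falls among non-overlapping calls of each fit, the 3 largest differences of preference in each direction, and each bin with a change of sign. The chromosome, lists and measures were chosen with earlier results of these data known. Scripts were tested on simulated data.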

Additional observations from a re-analysis of the deposited data

How the results depend on the processing

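Compartment strength and the A-A, B-B and A-B corner values kept their direction and did not overlap between groups under every alternative listed (corners of 10% and 50%, labels from other chromosomes or from each sample itself, pairs beyond 2 or 10 Mb, a coverage limit of 0.5, 1 of the 2 matrices per L1 AMO sample, or 1 sample fewer), except B-B without balancing, -0.0228 with overlap. The cause was not tested. Differences in strength without 1 sample ran from -1.06 to -0.986. The share within 2 Mb had no stable direction, with 0.179 points without balancing, -1.16 without contacts inside a bin, and -1.11 to 1.03 with samples left out. For contacts with other chromosomes, the A with A difference ran from -0.143 to -0.00728 and the A with B difference from -0.0192 to 0.0223 with samples left out. Counts of called pairs were 85 by DESeq2 and 61 to 144 with samples left out, beside 139, and at equal distance 40 and 23 to 88, beside 80. The lowest counts came without SCR AMO replicate 1, which leaves fewer contacts and samples. A fit with 2 samples against 1 assumes that the lone sample varies like the others. Bins from A to B numbered 14 to 20 with samples left out, where fewer samples have to share a sign. With a replicate block, pair differences in strength were -0.994 and -1.05, 149 pairs were called, and 86 were called at equal distance. Of the 9741 pairs over all chromosomes, that fit called 5117, and 3462 at equal distance. DESeq2 called 3096 of them, and 1635 at equal distance. Whether a shared number marks a shared experiment is not given in the labels. Deviations of same-numbered samples correlated at 0.12 and 0.04 in the fits. Of 217 alternative values for the 20 changes named by rule from the 2 fits, 197 kept their call, 20 lost it and 0 changed sign. B3/B10 was named from both fits. The rule took only non-overlapping calls, which leaves little room for a change of sign with a sample left out. Depth limits pairs of short blocks far apart.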
